A study of Mus musculus with 57 samples.

Results

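The thick ascending limb genes are 8 genes that mark the last segment of the loop of Henle, which leads into the distal convoluted tubule: Slc12a1, Umod, Kcnj1, Cldn10, Cldn16, Cldn19, Tmem207 and Ppp1r1a. They form a list set by gene name and by no threshold on measured values. The list was chosen with earlier results of these data known. All 8 were measured among the 19938 genes of the arrays. Each is read from a probe set annotated with its symbol alone. Cldn10 has 2 such probe sets, of which the one with the higher mean signal was used, and the other members have 1 each.

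The study profiled mouse kidneys on Affymetrix arrays before and after renal ischemia-reperfusion injury (IRI), in which the vessels of both kidneys were closed for 28 min and then reopened. In translating ribosome affinity purification (TRAP), RNA is recovered from ribosomes that carry an eGFP-tagged L10a protein, and a Cre driver decides which cells make the tag. Of 57 arrays in 19 groups, 51 held TRAP RNA and 6 held total RNA of the whole kidney. All mice were male, and all are labelled as a mixed strain background of C57BL/6 and 129.

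The tagged lines carried Rosa26-CAGGS-eGFPL10a with 1 of 4 drivers: six2-CRE for the nephron line, foxd1-CRE for the interstitial line, cdh5-CRE for the endothelial line and lyz2-CRE for the myeloid line. Each line had 3 arrays without surgery, 3 from sham surgery at 24 h and 3 from IRI at 24 h, and the nephron line had 3 more from IRI at 4 h. Nephron mice were 8 weeks old, or 6 weeks old without surgery. Interstitial and endothelial mice were all 6 weeks old, and myeloid mice were 9.5 weeks old for IRI and 7 weeks old for both controls, so age and injury cannot be told apart in the myeloid line. Kidneys of 8-week-old mice without Cre gave 4 IRI and 2 sham arrays with the L10a allele (L10a background) and 4 IRI and 2 sham arrays of wild-type mice (wild-type background), all at 24 h. The L10a background is labelled both homozygous and heterozygous, and it is described as signal from podocytes and some collecting duct cells. The wild-type mice are called C57BL/6 in their titles. Total RNA came from 8-week-old mice, with 3 arrays of IRI and 3 of sham at 24 h. The six2 driver labels the main body of the nephron and no segment of it alone, and the foxd1 driver is also active in podocytes. The replicates are labelled as biological, and with 2 to 4 arrays per group their number limits the precision of every value.

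Cells of the thick ascending limb take up sodium, potassium and chloride from the tubule fluid without water, which builds the concentration gradient of the renal medulla. The Slc12a1 product NKCC2 carries the ions in, the potassium channel encoded by Kcnj1 (ROMK) returns potassium to the lumen, and the resulting voltage drives calcium and magnesium between the cells through pores made of claudins. The segment also secretes uromodulin, the most abundant protein of normal urine. Not every member is found in this segment alone: Kcnj1 is also used by collecting duct cells, and a different isoform of Cldn10 occurs in the proximal tubule.

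Promoter windows of 3 members are shown because they stand for the responses described here: Tmem207, whose level fell furthest in the nephron line at 24 h, Slc12a1, the transporter that defines the segment, and Umod, which did not pass the test there. Each window runs from 250 bases before to 50 bases after the gene start, 5′ to 3′ on the strand of the gene, from RefSeq on build GRCm38.p6. Their positions are chr16:26526722-26527021 on the minus strand for Tmem207, chr2:125152350-125152649 on the plus strand for Slc12a1 and chr7:119479213-119479512 on the minus strand for Umod. Capitals mark the only match to AAGGTCA, the extended half-site that estrogen-related receptors are known to bind.
Tmem207: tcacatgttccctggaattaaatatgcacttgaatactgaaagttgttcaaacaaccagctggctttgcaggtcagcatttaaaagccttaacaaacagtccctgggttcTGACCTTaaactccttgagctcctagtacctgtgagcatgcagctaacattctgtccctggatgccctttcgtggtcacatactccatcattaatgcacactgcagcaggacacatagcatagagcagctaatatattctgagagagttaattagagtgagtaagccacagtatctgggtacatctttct
Slc12a1: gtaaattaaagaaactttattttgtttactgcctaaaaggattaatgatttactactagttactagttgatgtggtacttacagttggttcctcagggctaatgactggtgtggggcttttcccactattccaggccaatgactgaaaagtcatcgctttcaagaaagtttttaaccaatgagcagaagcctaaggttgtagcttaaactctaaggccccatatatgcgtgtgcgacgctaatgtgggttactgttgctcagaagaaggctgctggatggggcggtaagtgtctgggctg
Umod: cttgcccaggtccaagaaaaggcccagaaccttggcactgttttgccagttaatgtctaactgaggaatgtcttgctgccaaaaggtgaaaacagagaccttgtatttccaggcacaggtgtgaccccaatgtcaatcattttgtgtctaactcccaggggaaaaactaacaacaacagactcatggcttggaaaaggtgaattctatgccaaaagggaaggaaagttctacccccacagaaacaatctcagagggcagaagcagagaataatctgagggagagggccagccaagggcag

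RefSeq windows were matched for 7 of the 8 members, 9 windows in all since Cldn10 and Cldn19 have 2 starts each, and both strands were searched. AAGGTCA was found in the Tmem207 window alone among these, at position -140 from the gene start on the opposite strand, and it occurs in 4.72% of 32851 windows of the same length. TATAAA, the core of a TATA box, was in 0 of the 9 windows and occurs in 13.6% of all windows. A match describes letters and not a bound site. Tmem207 (chr16:26503793-26526771) and Cldn16 (chr16:26463135-26482765) are next to each other on opposite strands, with 21027 bases and 0 annotated genes between them. The other members lie apart: Slc12a1 at chr2:125152510-125230002, Umod at chr7:119462708-119479262, Kcnj1 at chr9:32372418-32399197, Cldn10 at chr14:118787871-118874525, Cldn19 at chr4:119255441-119262438 and Ppp1r1a at chr15:103530279-103538027.

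Levels below are log2 probe set intensities, and differences are log2 fold changes with the standard error (SE) of 1 limma model over all 57 arrays. Members are described as having risen or fallen only at a Benjamini-Hochberg adjusted p under 0.05 over 19302 genes, and all 8 passed the filter on low signal. Levels of the total RNA arrays, which have lower median intensities (43.9 to 53.3 against 105.8 to 128.4), were not set against TRAP levels. On 54 arrays the mean correlation with the other arrays of the group lay between 0.976 and 0.997, across genes. It was 0.923 to 0.957 for the 3 total RNA arrays of IRI.

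In the nephron line 24 h after IRI, 7 of the 8 members had fallen against sham, from 1.58-fold lower for Cldn19 to 6.44-fold for Slc12a1 and further for Tmem207, and Umod did not pass the test. Of all genes tested, 14.7% were called lower in this comparison. The median log2 fold change of the 8 members was -1.75, against -0.04 over all genes. In these bulk purifications, fewer cells of the segment and less of the RNA on the ribosomes of each cell cannot be told apart. A change in the RNA recovered without a tag, as seen in wild-type kidneys below, cannot be told apart from them either.

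The salt transport members fell together. Slc12a1 had levels of 11.46, 11.55 and 11.65 on the sham arrays and 8.95, 8.80 and 8.84 on the IRI arrays at 24 h. The groups were far apart and the 3 IRI arrays close to each other, for a log2 fold change of -2.69 ± 0.36 (SE, adjusted p = 9.8e-08), or 6.44-fold lower. Kcnj1 had levels of 11.47, 11.84 and 11.37 in sham and 8.82, 10.18 and 10.19 in IRI. The groups did not overlap, but IRI replicate 1 lay well below the others, and the log2 fold change of -1.83 ± 0.36 (adjusted p = 8.4e-05) became -1.37 without it (adjusted p = 0.005).

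The claudins make the paracellular pores of the segment: Cldn10 forms a sodium pore, and Cldn16 and Cldn19 act together in the route for calcium and magnesium. Cldn10 had levels of 11.52, 11.58 and 11.40 in sham and 9.47, 9.95 and 10.05 in IRI, a log2 fold change of -1.68 ± 0.21 (adjusted p = 2.9e-08). Its second probe set gave -1.81 in its place. Cldn16 had levels of 10.82, 10.62 and 10.70 in sham and 8.94, 9.86 and 9.29 in IRI, a log2 fold change of -1.35 ± 0.19 (adjusted p = 4.3e-07). All IRI arrays were below all sham arrays for both genes. Cldn19 moved least of those that fell, with levels of 10.19, 10.35 and 10.60 in sham and 9.42, 9.80 and 9.95 in IRI. Its log2 fold change was -0.66 ± 0.17 (adjusted p = 0.00199). The Cldn19 call depended on the control: mice without surgery had levels of 9.84, 9.93 and 9.91, which overlap the IRI arrays, and against them the log2 fold change was -0.17 (adjusted p = 0.519). Those mice were 6 weeks old and the IRI and sham mice 8 weeks old, so age and surgery cannot be told apart between these controls.

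Tmem207, a small transmembrane protein gene next to Cldn16, had the third lowest log2 fold change of all 19302 genes. Its levels were 8.51, 9.15 and 9.16 in sham and 5.57, 5.55 and 5.77 in IRI. The groups were far apart, for a log2 fold change of -3.31 ± 0.20 (adjusted p = 1.6e-16). The IRI levels sat close together not far above log2 5, the level of the filter on low signal. No detection calls were used here, so how much of them is background was not measured, and any difference of Tmem207 to a group this low is a difference of signals and may be smaller than that of the RNA. Ppp1r1a encodes an inhibitor of protein phosphatase 1 that is switched on by cyclic AMP signalling. It had levels of 11.46, 11.64 and 11.77 in sham and 9.60, 9.69 and 9.82 in IRI, a log2 fold change of -1.92 ± 0.20 (adjusted p = 2.7e-10) with no overlap.

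Umod, the gene of uromodulin, had levels of 13.02, 13.04 and 13.09 in sham and 13.12, 13.05 and 13.00 in IRI. The groups overlapped fully, and the log2 fold change was 0.004 ± 0.13 (adjusted p = 0.988). Its signal lay between 13.00 and 13.31 on all 12 nephron arrays, while the brightest signal of any gene on any array was 13.82. Whether signals this high can still show a change on these arrays was not tested.

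**Figure D1:**
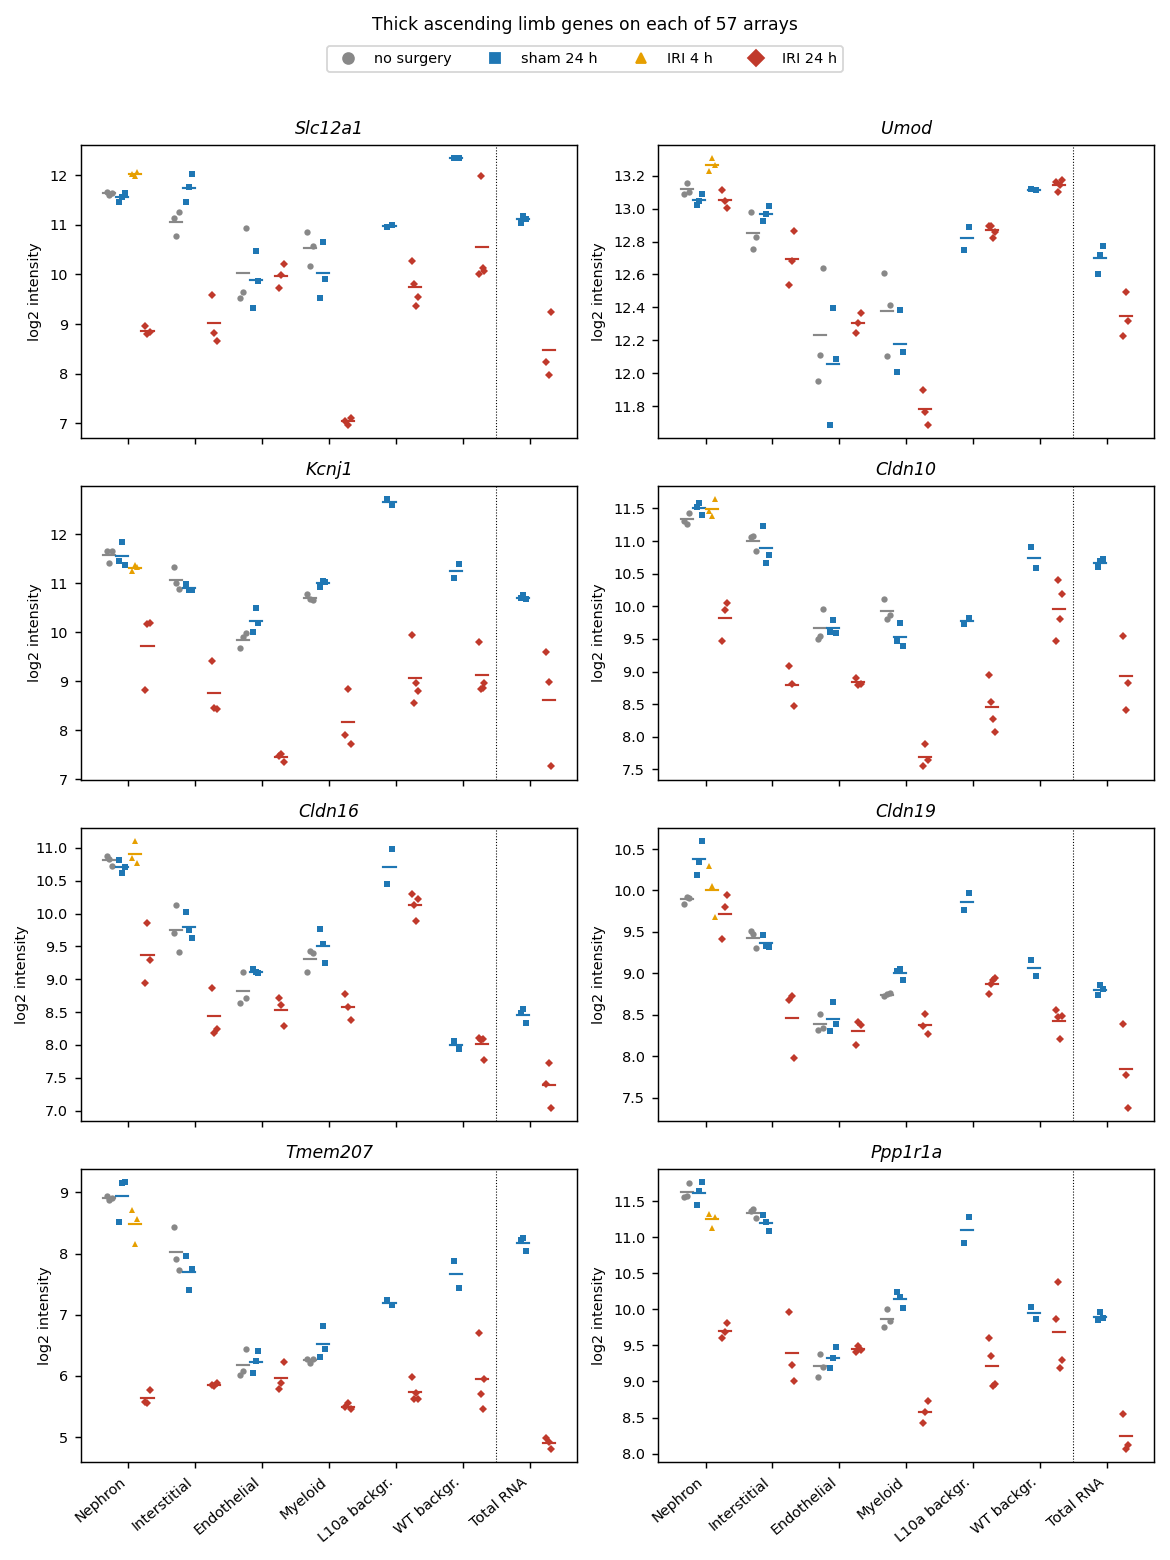
Level of each member (log2 intensity, with its own axis range in each panel) on all 57 arrays by line or preparation; points are arrays, short bars are group means, and the total RNA arrays right of the dotted line, with lower median intensities, are not compared with the others. In the nephron line the red IRI arrays at 24 h lie below the blue sham arrays for 7 members, while for Umod both groups lie between 13.00 and 13.12.

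At 4 h after IRI, 0 of the 8 members were called in the nephron line, where 10.8% of genes were called lower and 7.6% higher. The 4 h and the 24 h arrays were compared with the same sham arrays, which were taken at 24 h, so injury and time since surgery cannot be told apart at 4 h. The median log2 fold change of the members was -0.12, against -0.05 over all genes. Unadjusted limma p-values were under 0.05 for 2 members, Tmem207 (-0.46 ± 0.20) and Cldn19 (-0.37 ± 0.17), with adjusted p of 0.106 and 0.124. Leaving out sham replicate 1 brought Tmem207 past the threshold (-0.68, adjusted p = 0.0247), and leaving out IRI replicate 1 did so for Cldn19 (-0.51, adjusted p = 0.0497).

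Slc12a1 had levels of 12.02, 11.99 and 12.07 at 4 h, all above the sham arrays, for a log2 fold change of 0.47 ± 0.36 (adjusted p = 0.419). Umod had levels of 13.23, 13.31 and 13.27, also all above sham, with a log2 fold change of 0.22 ± 0.13 (adjusted p = 0.258). Ppp1r1a had levels of 11.33, 11.14 and 11.29, all below sham, with a log2 fold change of -0.37 ± 0.20 (adjusted p = 0.205). These 3 members had no overlap with sham (1 lower and 2 higher), as had 27.3% of all genes lower and 16.7% higher. A fit to the nephron sham and 4 h arrays alone called all 3: Slc12a1 with adjusted p = 0.00176, Umod with adjusted p = 0.0297 and Ppp1r1a with adjusted p = 0.0201. The share of all genes called in that fit is not given here, so this count cannot be set against it. The other members had log2 fold changes at 4 h of -0.24 ± 0.36 for Kcnj1, -0.01 ± 0.21 for Cldn10 and 0.19 ± 0.19 for Cldn16.

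Set directly against the 4 h arrays, 6 of the 8 members were lower at 24 h, where 12.7% of all genes were. Slc12a1 differed most, with a log2 fold change of -3.16 ± 0.36 (adjusted p = 3.7e-09), followed by Tmem207 (-2.85 ± 0.20, adjusted p = 2.7e-14). Kcnj1, Cldn10, Cldn16 and Ppp1r1a were lower by log2 fold changes from -1.67 to -1.55. Cldn19 (-0.29 ± 0.17, adjusted p = 0.23) and Umod (-0.21 ± 0.13, adjusted p = 0.236) did not pass. The median of the members was -1.57, against 0.003 over all genes.

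Between sham mice and mice without surgery, 0 of the 8 members were called by limma in any of the 4 lines. All genes called lower or higher made up 1.74% in the nephron, 10.1% in the interstitial, 0.85% in the endothelial and 1.58% in the myeloid line. At unadjusted p under 0.05 there was 1 member, Cldn19 in the nephron line (0.48 ± 0.17, adjusted p = 0.156, or 0.0366 in a fit to these groups alone), where the control mice also differed in age.

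All 8 members were higher in the nephron line than in the mean of the other 3 lines in mice without surgery, where 29% of genes were higher. Tmem207 differed most, by 2.09 ± 0.16 (adjusted p = 1.5e-14), and Umod least, by 0.63 ± 0.10 (adjusted p = 1.3e-06). The other lines nevertheless gave clear signal: without surgery, Umod levels were 12.98, 12.75 and 12.82 in the interstitial, 11.95, 12.11 and 12.64 in the endothelial and 12.61, 12.11 and 12.41 in the myeloid line.

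Wild-type kidneys, which make no tagged ribosomes, show the level of each member in the RNA recovered without a tag. Since the arrays have like median intensities, these are levels relative to other RNA, and the amount of RNA recovered was not measured here. Their sham arrays had Slc12a1 levels of 12.34 and 12.34, above all 3 nephron sham arrays, and the nephron difference was -0.79 ± 0.40 (adjusted p = 0.103, or 4.5e-05 in a fit to these groups alone). Umod had levels of 13.12 and 13.11 there, and Kcnj1 11.11 and 11.40. Nephron sham differed from them by -0.06 ± 0.14 for Umod (adjusted p = 0.759) and by 0.31 ± 0.40 for Kcnj1 (adjusted p = 0.577), so these 3 members were not shown to be higher with the tag.

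The other 5 members were higher in nephron sham than in wild-type sham, where 28.8% of genes were. Cldn16 had the greatest difference, with levels of 8.05 and 7.93 in wild-type sham and a difference of 2.72 ± 0.22 (adjusted p = 2.7e-14), or 6.60-fold. Ppp1r1a differed by 1.67 ± 0.22 (adjusted p = 1.3e-08), Cldn19 by 1.32 ± 0.19 (adjusted p = 7.8e-08), Tmem207 by 1.28 ± 0.22 (adjusted p = 4.6e-06) and Cldn10 by 0.75 ± 0.23 (adjusted p = 0.00661). Without wild-type sham replicate 2 the Cldn10 difference was 0.59 (adjusted p = 0.115).

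The other kidneys without Cre, those with the L10a allele, gave a different reference. In L10a sham the Cldn16 levels were 10.45 and 10.98, on both sides of the nephron sham arrays and far above wild-type sham. Ppp1r1a had levels of 10.92 and 11.28 there and Cldn19 of 9.76 and 9.97, between wild-type and nephron sham. Cldn10 (9.73 and 9.82) and Tmem207 (7.24 and 7.16) were below both. The difference of Cldn16 from kidneys without Cre was therefore seen against the wild-type reference and not in the levels of the L10a reference, against which no member was tested.

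In the other lines the same wild-type sham arrays were the reference, so these differences are not independent of each other. Wild-type mice were 8 weeks old, interstitial and endothelial mice 6 and myeloid sham mice 7, so line and age cannot be told apart. Interstitial sham was higher for Cldn16 (1.81 ± 0.22) and Ppp1r1a (1.26 ± 0.22), with 22.2% of genes higher, and 0 members were lower (19.8% of genes), though Slc12a1 and Kcnj1 were in a fit to these groups alone (adjusted p = 0.0191 and 0.0381). Endothelial sham was lower for 7 members (26.4% of genes), from -2.45 ± 0.40 for Slc12a1 to -0.61 ± 0.19 for Cldn19, and higher for Cldn16 (1.12 ± 0.22, adjusted p = 1.8e-05, with 29.5% of genes higher). Myeloid sham was lower for Slc12a1, Cldn10, Tmem207 and Umod (24.8% of genes) and higher for Cldn16 (1.52 ± 0.22, adjusted p = 6.4e-08, with 28.3% of genes higher). Cldn16 was above wild-type sham in all 4 tagged lines, and L10a sham, without Cre, lay above it as well. Of the 7 endothelial calls, 4 were kept without wild-type sham replicate 1, with Kcnj1, Cldn19 and Ppp1r1a lost. The Kcnj1 call was also lost without any of 3 other arrays, and that of Ppp1r1a without endothelial sham replicate 1.

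**Figure D2:**
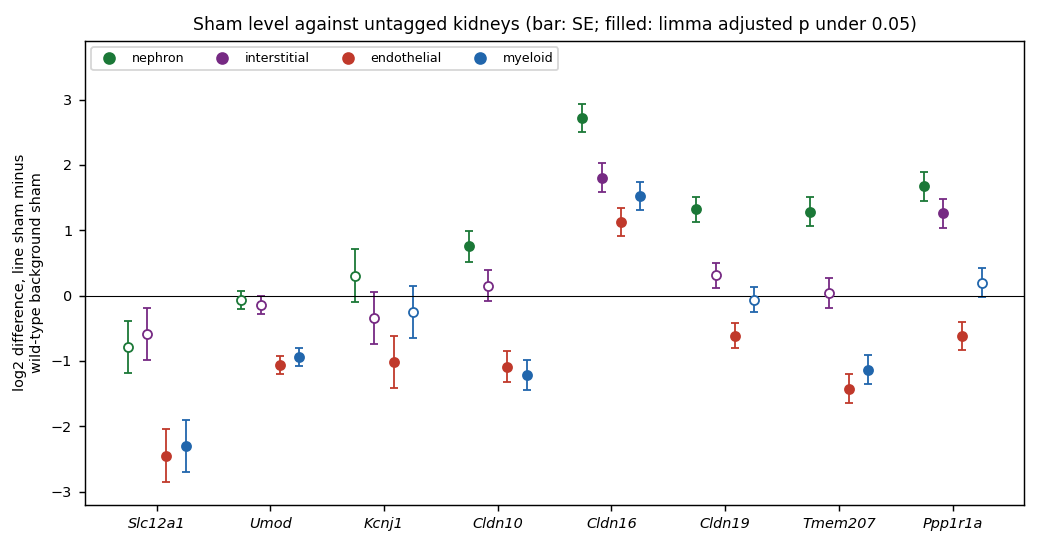
Difference in sham level between each tagged line and wild-type kidneys without a tag (log2, vertical axis) for each member; points are limma estimates, bars are SE, and filled points have an adjusted p under 0.05. Cldn16 is above 0 in all 4 lines (1.12 to 2.72), though the L10a background without Cre, not plotted, has sham levels of 10.45 and 10.98 for it, while Slc12a1 is below 0 in all 4 and filled for the endothelial and myeloid lines alone.

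After IRI at 24 h, member levels also fell in most preparations without a nephron tag. In the interstitial line 7 of the 8 members had fallen (19.9% of all genes), with a median log2 fold change of -1.82 against 0.05 over all genes. Slc12a1 had levels of 11.46, 11.75 and 12.02 in sham and 9.58, 8.82 and 8.67 in IRI, without overlap, and a log2 fold change of -2.73 ± 0.36 (adjusted p = 4.4e-08). Kcnj1 followed with -2.14 ± 0.36 and Cldn10 with -2.11 ± 0.21. Tmem207 had levels of 7.95, 7.40 and 7.74 in sham and 5.85, 5.84 and 5.88 in IRI, for a log2 fold change of -1.84 ± 0.20 (adjusted p = 7.6e-10). Umod did not pass (-0.27 ± 0.13, adjusted p = 0.0814), but did without IRI replicate 3 (-0.36, adjusted p = 0.0431). Summed intensities of 8 proximal tubule markers, another nephron segment, were 40813 to 46205 in interstitial sham and 18026 to 20169 in IRI, and their part in the result was not tested.

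In the myeloid line all 8 members had fallen (14.6% of all genes), with a median of -1.30 against -0.02. Slc12a1 had levels of 9.53, 10.66 and 9.91 in sham and 7.05, 6.97 and 7.12 in IRI, the lowest levels of this gene on any TRAP array, for a log2 fold change of -2.99 ± 0.36 (adjusted p = 7.7e-09). Kcnj1 had levels of 10.93, 11.05 and 11.04 in sham and 7.91, 8.85 and 7.73 in IRI, with -2.84 ± 0.36. Umod passed here, at -0.39 ± 0.13 (adjusted p = 0.0146), but was lost without IRI replicate 3 (adjusted p = 0.0746) or sham replicate 2 (adjusted p = 0.133). Summed proximal tubule markers were 11624 to 25366 in myeloid sham and 5614 to 5812 in IRI, and summed markers of myeloid cells 38216 to 41151 and 29417 to 33684. Their part in the result was not tested.

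The endothelial line departed from this pattern. Here 3 of the 8 members had fallen (21.7% of all genes), with a median of -0.20 against 0.07. Kcnj1 fell furthest, from levels of 10.01, 10.50 and 10.19 to 7.47, 7.52 and 7.34, the lowest of any TRAP group, with a log2 fold change of -2.80 ± 0.36 (adjusted p = 2.0e-08). Cldn10 (-0.82 ± 0.21, adjusted p = 0.00134) and Cldn16 (-0.58 ± 0.19, adjusted p = 0.0135) fell less, and Cldn16 did not pass under quantile normalization (-0.36, adjusted p = 0.117) or without IRI replicate 3 (adjusted p = 0.0901). Slc12a1 had overlapping levels of 9.33, 10.48 and 9.87 in sham and 9.73, 9.99 and 10.22 in IRI, with 0.08 ± 0.36 (adjusted p = 0.864). Tmem207 was low in both groups, with levels of 6.05, 6.24 and 6.41 in sham and 5.79, 5.89 and 6.22 in IRI (-0.26 ± 0.20, adjusted p = 0.29). Ppp1r1a (0.12 ± 0.20), Cldn19 (-0.14 ± 0.17) and Umod (0.25 ± 0.13) did not pass either, and Umod was called higher without sham replicate 2 (0.42, adjusted p = 0.00933). Summed proximal tubule markers were 20180 to 32763 in endothelial sham and 19349 to 21208 in IRI, and their part in the result was not tested.

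**Figure D3:**
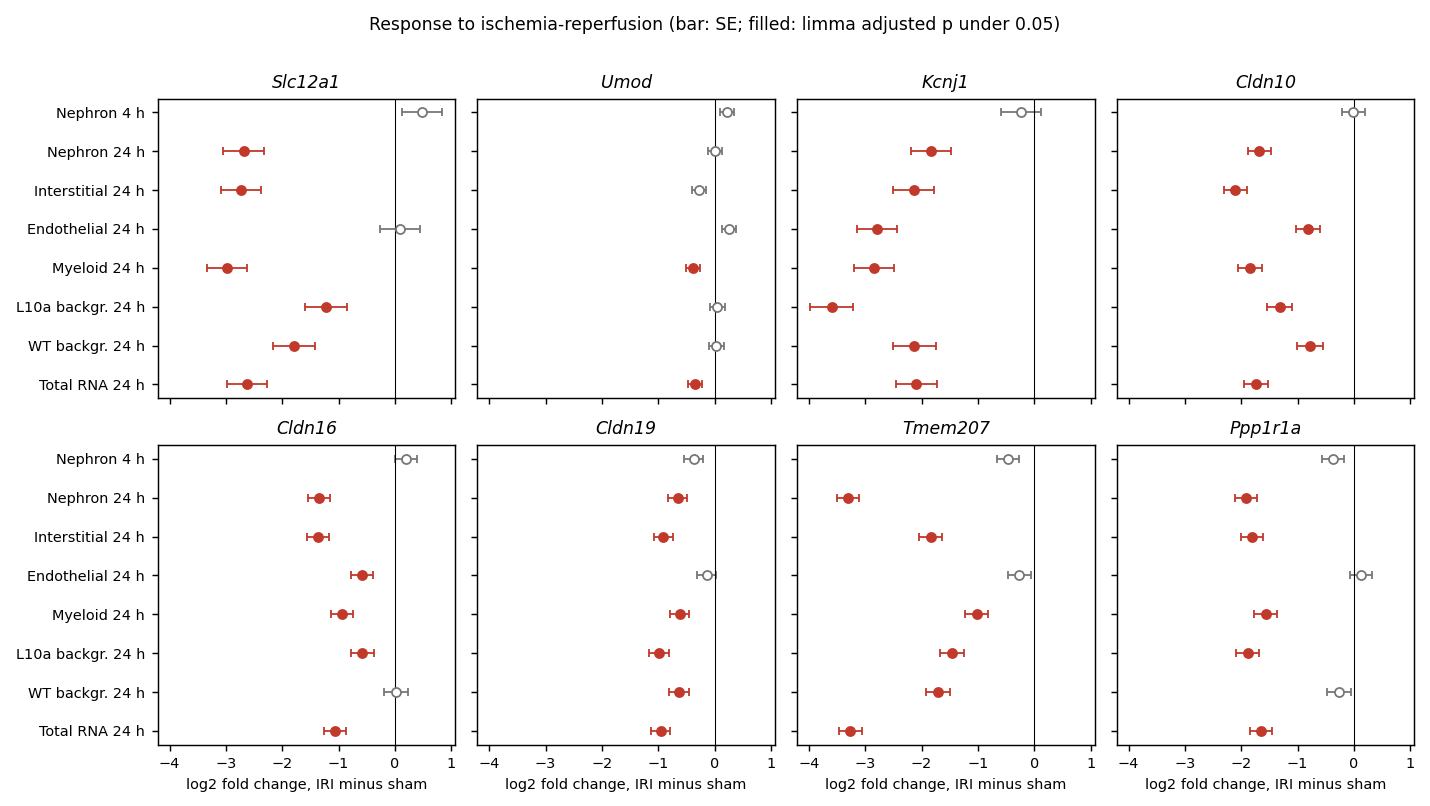
Response of each member to IRI (log2 fold change against sham of the same line or preparation, horizontal axis); points are limma estimates, bars are SE, and filled points have an adjusted p under 0.05. Slc12a1 and Ppp1r1a stand near 0 in the endothelial line (0.08 and 0.12) while Kcnj1 is at -2.80, and 0 members are filled in the nephron line at 4 h.

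The kidneys without Cre also lost member signal after IRI. In the L10a background 7 of 8 members had fallen (19.4% of all genes), with a median of -1.27 against 0.08, and Umod did not pass (0.05 ± 0.13, adjusted p = 0.787). Kcnj1 had its highest levels of any TRAP group in L10a sham, 12.72 and 12.61, and 9.95, 8.56, 8.96 and 8.80 after IRI. In this it parted from Slc12a1, whose levels there were 10.95 and 10.99 in sham and 10.26, 9.81, 9.37 and 9.54 in IRI (-1.23 ± 0.38, adjusted p = 0.00866). The Slc12a1 call was lost without either sham array (adjusted p = 0.0597 and 0.0568). The Cldn16 call (-0.58 ± 0.20, adjusted p = 0.0226) was lost without sham replicate 2 (-0.31, adjusted p = 0.354) or IRI replicate 3 (adjusted p = 0.0695). Of 6 principal cell markers 5 fell, with sums of 25714 to 26180 in L10a sham and 10884 to 14424 in IRI, and summed proximal tubule markers were 15121 to 24994 and 9370 to 14870. Their part in the result was not tested.

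In the wild-type background 5 members had fallen (17.7% of all genes), with a median of -0.71 against 0.04. Slc12a1 had levels of 10.01, 11.98, 10.14 and 10.06 after IRI, so that replicate 2 stood near the sham arrays and apart from the other 3. Its log2 fold change was -1.79 ± 0.38 (adjusted p = 1.5e-04), and -2.27 without that array. Kcnj1 fell by 2.13 ± 0.38 on the log2 scale and Tmem207 by 1.70 ± 0.21. Cldn16 (0.02 ± 0.20), Umod (0.03 ± 0.13) and Ppp1r1a (-0.27 ± 0.21, adjusted p = 0.352) did not pass, and without IRI replicate 2 Ppp1r1a did (-0.50, adjusted p = 0.0342). Without sham replicate 1, 3 calls were left, with Cldn10 (adjusted p = 0.107) and Cldn19 (adjusted p = 0.0797) lost. Cldn10 was also lost in a fit to these groups alone (adjusted p = 0.0614). Markers of other cells moved here too. Of 8 proximal tubule markers 3 fell, among them Slc5a12 at -1.83 ± 0.44, with sums of 55269 to 55409 in sham and 32928 to 44222 in IRI. Of 6 intercalated cell markers 2 fell and 2 rose, with sums of 7754 to 8646 and 4140 to 5621. Of 6 myeloid markers Adgre1 (-1.73 ± 0.25) and Csf1r (-1.36 ± 0.18) fell and Cd68 rose by 1.63 ± 0.28, with sums of 2772 to 2850 and 1814 to 2232. Of 5 interstitial markers 2 fell, Col1a1 (-1.28 ± 0.23) and Col3a1 (-0.90 ± 0.23), with sums of 8967 to 9726 and 4302 to 11180. Distal convoluted tubule markers Slc8a1 (-2.62 ± 0.21), Klhl3 (-2.30 ± 0.18) and Calb1 (-1.44 ± 0.31) fell, while Slc12a3, Pvalb and Trpm6 did not pass. Endothelial markers Pecam1, Emcn and Cdh5 rose, Tek fell, and Kdr and Tie1 did not pass. Neutrophil markers S100a8, S100a9, Csf3r and Ly6g rose, and Ngp did not pass. The part of these markers in the result was not tested.

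Total RNA, which needs no tag, showed all 8 members lower 24 h after IRI (15.7% of all genes), with a median of -1.70 against 0.06. Tmem207 had levels of 8.23, 8.25 and 8.04 in sham and 4.99, 4.93 and 4.81 in IRI, a log2 fold change of -3.26 ± 0.20 (adjusted p = 4.1e-16). Its 3 IRI levels lay below log2 5, so the size of this difference has the limit given for the nephron line. Slc12a1 was lower by 6.15-fold (-2.62 ± 0.36), with IRI levels of 8.24, 7.98 and 9.24. Umod had levels of 12.60, 12.72 and 12.77 in sham and 12.23, 12.49 and 12.32 in IRI, and its log2 fold change of -0.35 ± 0.13 (adjusted p = 0.0282) was not called under quantile normalization (-0.12, adjusted p = 0.492). The IRI arrays of total RNA differed more among themselves than those of other groups: Kcnj1 had levels of 9.60, 8.98 and 7.26, and a fit to the total RNA arrays alone called 5 of the 8, without Umod, Kcnj1 and Cldn19. For that fit the share of all genes called is not given here. All 6 distal convoluted tubule markers fell in total RNA, with sums of 7332 to 8093 in sham and 2174 to 3870 in IRI. Of 6 intercalated cell markers 5 fell, among them Slc4a1 at -2.58 ± 0.29, with sums of 2896 to 3365 and 1124 to 1777. Of 8 proximal tubule markers 5 fell, among them Slc5a12 at -2.70 ± 0.42, with sums of 33571 to 34137 and 15952 to 22130. Of 6 principal cell markers 3 fell. The part of these markers in the result was not tested.

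Responses were then set against each other within the same model. The nephron responses of the 8 members did not pass against the total RNA responses for any member (1.99% of genes lower and 1.41% higher, limma), also at unadjusted p under 0.05, and the intervals were wide, with SE of 0.18 to 0.51. Against the mean response of the other 3 lines, the nephron response was lower for Tmem207 (difference of -2.27 ± 0.23, adjusted p = 8.3e-10) and Ppp1r1a (-0.83 ± 0.23, adjusted p = 0.00578), as it was for 11.2% of genes. Kcnj1 passed in the other direction without nephron IRI replicate 1 (1.22, adjusted p = 0.0349), and Cldn16 without nephron IRI replicate 2 (-0.64, adjusted p = 0.0431). Tmem207 started from higher sham levels in the nephron line than elsewhere, and its IRI levels lay between 5.45 and 6.22 in all 4 lines, so how far these differences in response rest on the sham levels and on low signal was not tested. Against the wild-type background response, the nephron response was lower for Ppp1r1a (-1.65 ± 0.28), Tmem207 (-1.61 ± 0.29), Cldn16 (-1.37 ± 0.28) and Cldn10 (-0.90 ± 0.31), as it was for 12.6% of genes, the last with adjusted p = 0.0292, and not without nephron IRI replicate 1 (-0.72, adjusted p = 0.106), wild-type sham replicate 2 (-0.74, adjusted p = 0.179) or 4 other arrays. Slc12a1 (-0.89 ± 0.52, adjusted p = 0.23) and Kcnj1 (0.30 ± 0.52, adjusted p = 0.726) were not shown to differ from the wild-type background.

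Line by line, in comparisons added after the data were seen, the endothelial response was smaller than the nephron response for 5 members (16.6% of genes higher): Tmem207 by 3.05 ± 0.28, Slc12a1 by 2.77 ± 0.50 (adjusted p = 3.7e-05), Ppp1r1a by 2.04 ± 0.28, Cldn10 by 0.86 ± 0.30 and Cldn16 by 0.77 ± 0.27. Without nephron IRI replicate 1 there were 3, with Cldn10 (adjusted p = 0.0894) and Cldn16 (adjusted p = 0.12) lost, and Kcnj1 was then lower in the endothelial line (-1.42, adjusted p = 0.0277). The Cldn16 difference was also lost without any of 4 other arrays. Tmem207 was the only member called in the interstitial minus nephron difference (1.47 ± 0.28, 6.05% of genes higher) and in the myeloid minus nephron difference (2.29 ± 0.28, 8.74% of genes higher). Umod was lower in the latter under quantile normalization (-0.49, adjusted p = 0.0473), and Kcnj1 without nephron IRI replicate 1 (-1.47, adjusted p = 0.0374). All these differences share the nephron arrays. Endothelial sham means lay below nephron IRI means at 24 h for Ppp1r1a (9.33 against 9.70), Cldn10 (9.66 against 9.82) and Cldn16 (9.12 against 9.36). They lay above for Slc12a1 (9.89 against 8.87) and Tmem207 (6.23 against 5.63). How far the differences in response rest on starting levels was not tested. Mice of the other lines were of other ages than the 8-week-old nephron mice, so line and age cannot be told apart here.

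Across the 17 TRAP groups, the range of mean levels differed between members. Slc12a1 ranged over 5.29, from wild-type sham (12.34 ± 0.003, SD, n = 2) to myeloid IRI (7.05 ± 0.07, n = 3). Kcnj1 ranged over 5.22, from L10a sham (12.66 ± 0.07, n = 2) to endothelial IRI (7.44 ± 0.09, n = 3). Tmem207 ranged over 3.44, from nephron sham (8.94 ± 0.37, n = 3) to myeloid IRI (5.50 ± 0.05, n = 3), and Umod over 1.48, from nephron IRI at 4 h (13.27 ± 0.04, n = 3) to myeloid IRI (11.78 ± 0.11, n = 3). Cldn10 had its highest mean in nephron sham, 3.81 above myeloid IRI, Ppp1r1a in nephron mice without surgery, 3.06 above myeloid IRI, Cldn19 in nephron sham, 2.07 above endothelial IRI, and Cldn16 in nephron IRI at 4 h, 2.92 above wild-type sham. When groups are put in order of their mean, most neighbours overlap in their arrays: 13 of 16 steps for Slc12a1, Umod and Ppp1r1a, 14 for Cldn16 and Cldn19, 12 for Cldn10 and Tmem207 and 11 for Kcnj1. For Tmem207, nephron sham, nephron without surgery and then nephron IRI at 4 h stood at the top, and the step from nephron without surgery to 4 h was 1 of the 4 without overlap. The mice without surgery were 6 weeks old and those at 4 h 8 weeks old. Sham arrays of 8-week-old mice (8.51 to 9.16) did overlap the 4 h arrays (8.16 to 8.70). For Slc12a1, the step from nephron sham to interstitial mice without surgery and the last step, from nephron IRI at 24 h (8.87) to myeloid IRI, had no overlap.

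As a description over these 17 group means, which share lines and treatments, the level of Ppp1r1a followed the mean of the other 7 members most closely (Pearson r = 0.942), then Tmem207 (0.913) and Cldn10 (0.894). Umod (0.65) and Cldn16 (0.666) followed it least, and the pair of Cldn16 and Umod had the lowest correlation of all (0.377). Among genes outside the 8, the closest to the mean of the members were Dmtn (0.962), Bsnd (0.961), Oxgr1 (0.959), Mturn (0.959) and Sfrp1 (0.957), followed by Fahd1, Phyhip, Casr, Prkcz and Mapt (0.954 to 0.948). Bsnd encodes barttin, the subunit of the chloride channels through which chloride leaves the cells of this segment, and Casr encodes the calcium-sensing receptor. In the nephron line at 24 h the log2 fold changes of these 10 genes lay between -2.53 and -0.89, and all 10 were called lower. The 17 group means used to choose them include these nephron arrays, so the falls follow in part from the choice.

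Genes that work with the members were read in the nephron line from 7 lists, also chosen with earlier results of these data known. Of all 19302 genes tested there, 5497 were called at 24 h, 51.6% of them lower. At 4 h, 10.8% were called lower and 7.6% higher. The counts of these short lists were not tested against those shares. Of 8 tested salt transport partners, 5 fell and 1 rose at 24 h, with a median log2 fold change of -0.59. Bsnd fell by 2.53 ± 0.27, the sodium-hydrogen exchanger gene Slc9a3 by 1.22 ± 0.26 and the potassium channel gene Kcnj10 by 1.04 ± 0.32, while Maged2, needed for the membrane delivery of NKCC2, rose by 0.46 ± 0.11. Bsnd had already fallen at 4 h, by 1.09 ± 0.27 (adjusted p = 0.00272). The kinase pathway that switches the cotransporters on was mixed: of 9 regulators 2 fell and 3 rose at 24 h, with Klhl3, which targets WNK kinases for degradation, at -1.38 ± 0.17, Wnk4 at -0.72 ± 0.23, the kinase gene Oxsr1 at 0.77 ± 0.14 and Sgk1 at 0.59 ± 0.21. At 4 h 3 rose, among them Sgk1 by 1.69 ± 0.21, and 0 fell.

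Of 11 genes of divalent cation handling and tight junctions, 4 fell and 3 rose at 24 h. Egf, the growth factor that stimulates magnesium uptake, changed by -1.68 ± 0.51, Casr by -1.36 ± 0.19 and Cnnm2 by -1.01 ± 0.17, whereas Cldn4 rose by 2.56 ± 0.23 at 24 h and had risen by 2.61 ± 0.23 at 4 h. Cldn4 and the members Cldn10, Cldn16 and Cldn19 are all claudin genes and moved in opposite directions at 24 h. Quantile normalization moved the median of all genes from -0.04 to -0.01 and left the 3 members lower. Of 7 hormone receptor and cyclic AMP genes 5 fell and 1 rose at 24 h, with Hsd11b2 at -1.62 ± 0.38, the vasopressin receptor gene Avpr2 at -1.62 ± 0.25, the prostaglandin receptor gene Ptger3 at -1.53 ± 0.16 and the calcitonin receptor gene Calcr at 0.89 ± 0.11.

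Of 7 transcription factors of the loop and distal nephron 6 fell and 0 rose at 24 h, with a median of -0.82. Esrrb fell by 1.22 ± 0.17, the coactivator gene Ppargc1a by 1.21 ± 0.43, Irx1 by 0.93 ± 0.17 and Esrrg by 0.82 ± 0.17. Irx1, Irx2 and Pou3f3 were the 3 that had fallen at 4 h, when 0 members were called. Whether these factors and the members differed at 4 h was not tested. Of the 3 genes of uromodulin processing and partners, Hpn, whose protease releases uromodulin from the membrane, fell by 0.92 ± 0.23 and Gp2 by 0.60 ± 0.12, and Muc1 rose by 1.28 ± 0.25. Of the 3 catalytic subunits of protein phosphatase 1, the target of the Ppp1r1a product, Ppp1cb fell by 0.24 ± 0.07 and the others did not pass.

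**Figure D4:**
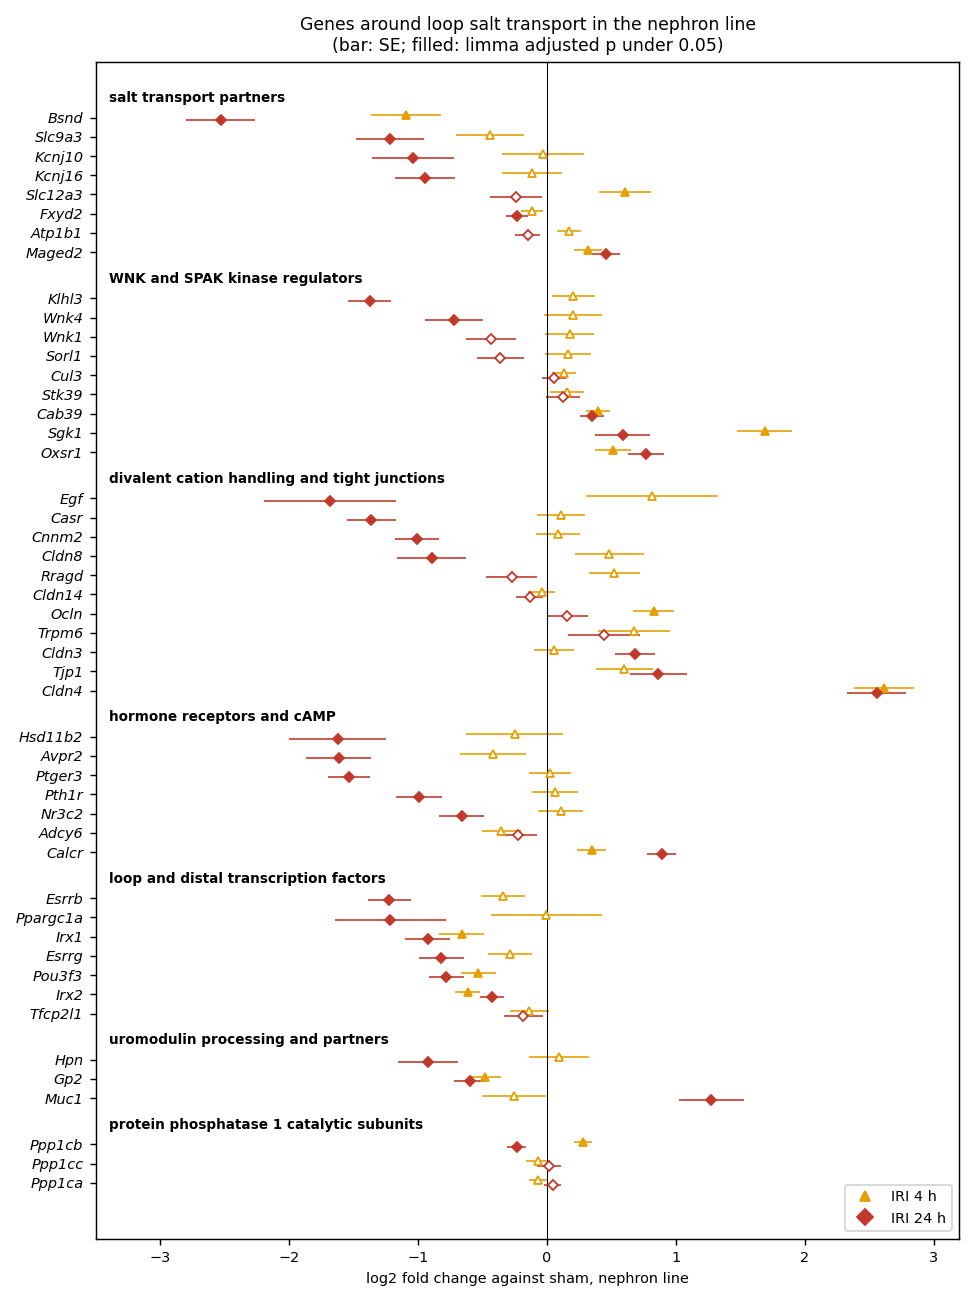
Log2 fold change against sham in the nephron line (horizontal axis) for the tested genes of 7 lists around salt transport at 4 h (triangles) and 24 h (diamonds); bars are SE, and filled symbols have an adjusted p under 0.05. Bsnd is the lowest at 24 h (-2.53) and Cldn4 is high at both times (2.61 and 2.56).

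Markers of other cells moved with these results in the nephron line at 24 h. Of 8 proximal tubule markers 4 fell, and their summed intensity went from 41357 to 45106 in sham to 29563 to 30900 in IRI. Of 6 markers each, 3 fell for the distal convoluted tubule and 3 for principal cells. Of 6 endothelial markers 3 rose, with sums of 815 to 947 in sham and 1192 to 1539 in IRI. Of 6 myeloid markers Cd68 rose by 3.27 ± 0.27 and Csf1r fell by 1.13 ± 0.17, with sums of 1231 to 1302 and 1551 to 2016. All 4 tubular injury markers rose, among them Krt20 by 5.78 ± 0.37. The part of these markers in the responses of the members was not tested. The same was done for podocyte (1 of 5 rose), interstitial (1 of 5 rose), intercalated cell (2 fell and 1 rose of 6), neutrophil (0 of 5 called), lymphocyte (0 of 4 called) and adipocyte markers (1 of 5 rose).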

How the data were processed

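Probe set intensities of 57 Affymetrix Mouse Gene 1.0 ST arrays were used as deposited by the authors. Per the submitters' processing notes they were made with RMA in Affymetrix Expression Console 1.3.1, and the analysis plan took them for log2 values. They ran from 7.15 to 19571 on a linear scale, so their log2 was taken. Of 35556 probe sets, the 21789 with 1 symbol were kept (19938 genes, the highest mean where there were several), and genes above log2 5 in at least 3 arrays were tested (19302). Limma 3.58.1 in R 4.3.3 fitted 1 coefficient per group, which left 38 residual degrees of freedom and a median SD of 0.154, with two-sided tests and Benjamini-Hochberg adjustment over all genes of a comparison. The procedure was tested on simulated data. The members and gene lists were chosen with earlier results of these data known. Named genes were the members, up to 4 called genes per list with the largest change, and the 10 genes most like the members' mean over 17 TRAP groups. The count of members without overlap between groups and the summed marker intensities are descriptions. Replicate numbers come from the labels and were checked for pairing. Promoter windows, positions and gene neighbours come from RefSeq tables (GRCm38.p6), and plots were made with matplotlib 3.10.9. Alternatives changed the normalization, filter, arrays in the fit, prior, block, probe set and control, and left out each replicate in turn.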

Additional observations from a re-analysis of the deposited data

Results flagged for a closer look

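In the wild-type background after IRI, 1 of the 4 arrays stood apart for 3 members, by the gap to its neighbour divided by the range of the group. This share was 0.937 for Slc12a1 (replicate 2 high), 0.876 for Kcnj1 (replicate 1 high) and 0.915 for Cldn16 (replicate 4 low). Of 16 sets of 4 arrays checked, 3 had such a gap, and these sets share arrays. Chance alone gives such a gap in about 1 of 20 groups, and the array differed between the 3 members. Replicates 1 and 2 had the lowest mean correlations with their own group of all TRAP arrays (0.9757 and 0.9805).

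Responses to IRI at 24 h differed between lines or preparations for 5 members, by the limma test of the difference itself. That count is pooled over the differences below. The nephron response minus the mean of the other 3 lines was -2.27 for Tmem207 and -0.83 for Ppp1r1a (11.2% of genes lower). Minus the wild-type background response it was -0.90 for Cldn10, -1.37 for Cldn16, -1.61 for Tmem207 and -1.65 for Ppp1r1a (12.6% lower). The endothelial minus the nephron response was 2.77 for Slc12a1, 0.86 for Cldn10, 0.77 for Cldn16, 3.05 for Tmem207 and 2.04 for Ppp1r1a (16.6% higher). For Tmem207 the interstitial minus nephron difference was 1.47 (6.05% higher) and the myeloid minus nephron difference 2.29 (8.74% higher). Line-by-line differences were added after the data were seen. Both Cldn10 calls and the endothelial Cldn16 call were lost when single arrays were left out.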

How the results depend on the processing

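Over all comparisons and alternatives, 3224 values of members were recomputed: 3160 kept their side of the threshold, 42 lost their call and 22 gained one. The sign turned for 83 of them, 0 of which were called before or after. Of the changed calls, a fit to the compared groups alone, whose shares of all genes called are not given here, made 10 gains and 5 losses. In it, members called lower were 2 for interstitial sham against wild-type sham, 1 for nephron sham against wild-type sham, 1 for nephron IRI at 4 h, 1 for the myeloid minus nephron response (0 each in the fit of all arrays) and 5 for total RNA (8 in the fit of all arrays). Members called higher in it were 2 for nephron IRI at 4 h and 1 for nephron sham against no surgery (0 in the fit of all arrays). It also called Cldn19 in interstitial against wild-type sham (0.31, adjusted p = 0.0359) and Umod at 24 h against 4 h (-0.21, adjusted p = 0.0287), and lost Cldn10 in the wild-type background and in the nephron minus wild-type background response (adjusted p = 0.0614 and 0.0688). Quantile normalization called 1 member lower in the myeloid minus nephron response. The cause was not tested. Leaving out 1 array gave 3 to 6 members lower in the wild-type background, 4 to 7 lower in endothelial against wild-type sham, 3 to 5 higher and 0 to 1 lower in the endothelial minus nephron response, 0 to 1 higher in the endothelial line and in the nephron minus other lines difference, and 0 to 1 lower at 4 h and in the myeloid minus nephron response.

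Same-numbered arrays did not pair in the nephron line at 24 h, where the correlations of their deviations were 0.03 to 0.106. Elsewhere these correlations ran from -0.583 (myeloid sham against no surgery) to 0.512 (endothelial sham against no surgery). A replicate block left 7 members lower in the nephron line at 24 h and changed 0 of 192 calls. Leaving out the 6 total RNA arrays, an alternative chosen after seeing the data, changed the side of the threshold of 1 of 176 values. The signal of Umod near the top of the scale and groups of 2 background sham arrays limit what could be seen.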

Other observations

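Genes named for the nephron line were also read in the other TRAP preparations at 24 h after IRI, a choice made after their values were seen. Bsnd, the chloride channel subunit gene among those most like the members, was lower against sham in every TRAP preparation: by log2 fold changes of -2.31 ± 0.27 in the interstitial, -1.39 ± 0.27 in the endothelial and -1.63 ± 0.27 in the myeloid line, -2.45 ± 0.29 in the L10a background and -2.16 ± 0.29 in the wild-type background. Bsnd, but not Slc12a1, passed in the endothelial line (adjusted p = 4.2e-05), and so did Casr (-0.76 ± 0.19, adjusted p = 0.00104) and Avpr2 (-2.07 ± 0.25, adjusted p = 8.5e-09). The likeness of Bsnd and Casr to the members was measured over these same groups, so their falls are not independent of it. Avpr2, the vasopressin receptor gene of collecting duct and thick ascending limb, was lowest in the L10a background (-4.09 ± 0.27, adjusted p = 1.1e-15), where Kcnj1 had its lowest log2 fold change as well. Cldn4 rose in all 5, by between 1.85 ± 0.24 in the L10a background and 3.57 ± 0.24 in the wild-type background. Of the 7 transcription factors of the loop and distal nephron, 7 were lower in the interstitial line (19.9% of all genes), 4 in the endothelial (21.7%), 6 in the myeloid (14.6%), 6 in the L10a background (19.4%) and 5 in the wild-type background (17.7%), and 0 were higher in any. Some genes called in the nephron line did not keep their direction in the L10a background: Slc9a3 rose there by 1.13 ± 0.28 (adjusted p = 0.00113), Maged2 fell by 0.65 ± 0.12 (adjusted p = 1.5e-05), and Egf had a log2 fold change of -0.01 ± 0.54 (adjusted p = 0.989). These differences between preparations were not tested.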
